A study of Bombus terrestris with 8 samples.

Results

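Narrow constant regions are stretches of the placed chromosomes of *Bombus terrestris*, the buff-tailed bumblebee, that carried an ATAC-seq peak in every one of 8 whole-animal samples and remained less than 1000 bp wide after overlapping peaks were merged. The distinct intervals of all 8 peak lists on the 18 chromosomes of the Bter_1.0 assembly were merged where they overlapped by at least 1 bp, which gave 52844 merged regions. Of these, 4880 held an interval from all 8 lists, and 3343 of the 4880 had a merged span below 1000 bp. These 3343 members make up 6.33% of the merged regions of the placed chromosomes and 68.5% of the constant ones, the remaining 1537 being broad constant regions. The members were chosen by measured values, the presence of a called peak in each list and the merged width, so neither is a finding here.

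The 4 groups were egg, larva, pupa and adult, all of the worker caste and from commercial colonies, with 2 biological replicates each, and no treatment or allele is named for any of them. An adult sample was 1 worker bee, while an egg, larva or pupa sample was a pool with about the volume of an adult, so replicates of the earlier stages are pools of individuals. Whole bodies were used, and a weaker peak can reflect fewer cells with open chromatin at that place or a lower accessibility per cell, which cannot be told apart. The lists give peaks and no reads, so the depth behind a single value is unknown.

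In ATAC-seq, a transposase inserts sequencing adaptors into DNA that is not wrapped in nucleosomes, and places with many insertions are called as peaks. The summit of a peak is the base with the highest pile-up and usually marks the centre of the nucleosome-free stretch. In animals studied so far, regions that are open in most tissues and stages are often promoters of genes that nearly every cell uses or sites of architectural proteins, whereas enhancers tend to be open in particular cell types. In a holometabolous insect such as the bumblebee, the larval body is largely rebuilt in the pupa, so that a region with a peak in egg, larva, pupa and adult was detected through that change of tissues. The genes next to the members and their sequence were not analysed here.

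The members had a median span of 692 bp, with an interquartile range of 562 to 826 bp and a lowest span of 262 bp. In 3036 members (90.8%) each sample contributed a single interval, against 38.1% of the broad constant regions. A stretch covered in all 8 samples existed in 3310 members, with a median length of 291 bp over all members, and 33 members had no base in common to all samples. The median interval width within members was 460 and 534 bp in the egg samples, 399 and 348 bp in the larval samples, 536 and 613 bp in the pupal samples, and 482 and 538 bp in the adult samples. The intervals were therefore narrowest in the larva, and narrower in larva replicate 2 than in any other sample.

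The upper edge of the rule cut through a continuous distribution of widths. There were 213 members in the 50 bp below the limit and 181 constant regions in the 50 bp from the limit upwards. The widest member, NC_015767.1 from 920012 to 921010 (999 bp), showed 7.54-fold and 7.44-fold enrichment in the egg, 5.33 and 3.51 in the larva, 3.45 and 3.21 in the pupa, and 6.16 and 4.55 in the adult. The narrowest constant region outside the rule, NC_015768.1 from 8297247 to 8298246 (1000 bp), had 10.6 and 8.86 in the egg, 7.69 and 5.98 in the larva, 8.11 and 7.06 in the pupa, and 9.23 and 7.54 in the adult. Fold enrichment is the height of the summit relative to the local background, as given by the authors' peak caller.

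The requirement of a peak in all 8 lists depended mostly on 1 list. A further 2464 narrow regions had an interval in 7 lists, and larva replicate 2 was the missing one for 1914 of them (77.7%). Larva replicate 1 was missing for 192, egg replicate 1 for 103, and each of the other samples for 28 to 76. Without larva replicate 2, 5258 narrow regions would have had a peak in all remaining lists, while leaving out any other sample gave 3423 to 3695. Larva replicate 2 also had the shortest list, with 7875 intervals on placed chromosomes against 11768 in larva replicate 1 and 20993 to 31105 in the other samples, so that members accounted for 43.3% of its placed intervals and for 10.8% of those of pupa replicate 2.

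Summits lay close together across the life cycle. For each sample, the summit with the highest −log10 (P value) in a member was taken, and the summit range is the distance between the outermost of the 8 positions. The median summit range was 64 bp, with an interquartile range of 38 to 132 bp. The range was at most 25 bp in 310 members (9.27%), at most 50 bp in 1263 (37.8%) and at most 100 bp in 2259 (67.6%). All 8 summits fell inside the stretch covered in every sample in 2915 members (87.2%). The share within 50 bp was 49.4% without larva replicate 2 and 39.2% to 42.2% without any other sample. The span caps the summit range, so the 108 bp of the broad constant regions is given only for scale.

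The tightest member was NC_015769.1 from 3121583 to 3121844, which was also the shortest with 262 bp. Its 8 summits lay between bases 3121711 and 3121718, a range of 7 bp. Its fold enrichment was 7.09 and 5.52 in the egg, 5.13 and 5.42 in the larva, 4.85 and 3.30 in the pupa, and 5.68 and 3.02 in the adult. The adult samples were apart from each other and overlapped the other stages, and the summit position was shared at a moderate strength.

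The next members by summit range were among the strongest of the set. Both had a range of 9 bp, and ties in range were ordered by the higher lowest fold enrichment. Their strength can therefore be a product of that order. In NC_015762.1 from 7275316 to 7275740 the summits lay between bases 7275566 and 7275575 (9 bp), with a fold enrichment of 16.5 and 12.7 in the egg, 16.1 and 16.9 in the larva, 14.4 and 8.89 in the pupa, and 12.7 and 8.63 in the adult. In NC_015769.1 from 8748112 to 8748765 they lay between bases 8748420 and 8748429 (9 bp), with 14.6 and 14.1 in the egg, 11.4 and 11.3 in the larva, 12.6 and 8.16 in the pupa, and 11.1 and 8.38 in the adult. In both members replicate 2 of the pupa and of the adult had the lowest values. The median fold enrichment over all members was also lower in these samples than in replicate 1 of the same stage, at 5.04 against 5.59 in the pupa and 4.50 against 5.57 in the adult.

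Strong members had the closer summits. When the members were split into 4 groups of nearly equal size by their lowest −log10 (P value) over the 8 samples, the median summit range fell from 117 bp in the weakest group, at values up to 6.09, to 63, 51 and 49 bp in the following groups. Within 50 bp lay 14.9% of the weakest group and 52.0% of the strongest. Members are not independent replicates, and this relation is a description. It was present inside each sample as well: the median distance of a sample's summit from the median of the 8 positions was between 21 and 28.5 bp where the sample's own −log10 (P value) was under 10, and between 6 and 15 bp where it was 40 or more.

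Larva replicate 2 stood apart in summit position. Its summit lay at a median of 20.5 bp from the median position, against 8 to 13 bp in the other 7 samples, and it was the single farthest summit in 1056 members (31.6%), followed by larva replicate 1 with 476. Part of its members were weak, with 1707 under a −log10 (P value) of 10. At 20 to 40 on that scale it still deviated by 17 bp in 353 members, against 8.5 to 12.25 bp in the other samples. Its values were also coarser, since its 3343 members shared 1275 distinct values of fold enrichment, against 1867 in larva replicate 1 and 2380 to 2788 elsewhere. What sets its summits apart was not tested.

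**Figure D1:**
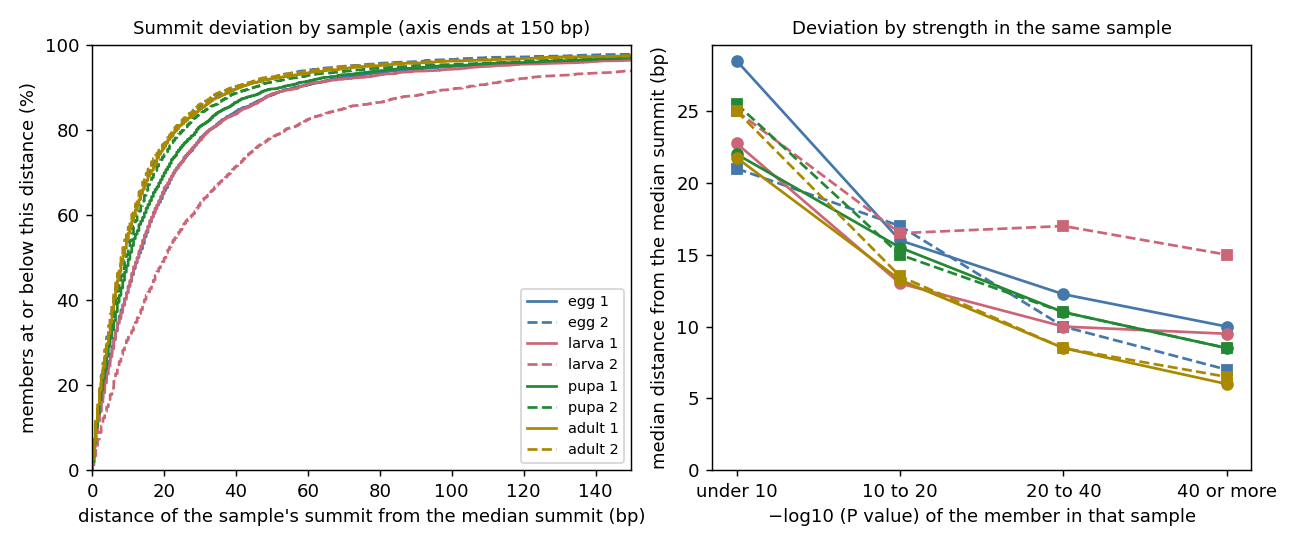
Left, share of the 3343 members (y axis, %) whose summit in a sample lies within a given distance (x axis, bp) of the median of the 8 summits; right, the median of that distance in bp by the −log10 (P value) of the member in the same sample, with solid lines for replicate 1 and dashed lines for replicate 2. The curve of larva replicate 2 lies below all others, and its median distance is 15 bp at 40 or more, where the other samples are between 6 and 10 bp.

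Pairs of samples were then compared by the median, over members, of the distance between their summits. The median distance was 12 bp for the 2 adult samples, 13 bp for the 2 pupal samples, 19 bp for the 2 egg samples and 25 bp for the 2 larval samples. The mean within stages was 17.2 ± 6.02 bp (SD, n = 4 pairs), and the mean between samples of different stages was 19.8 ± 4.73 bp (SD, n = 24 pairs), ranging from 13 to 30 bp. The difference of 2.58 bp was compared with that of all ways to put the 8 samples into 4 pairs (exact permutation test, one-sided, p = 0.019, and 0.019 after Benjamini-Hochberg adjustment over 2 such tests, where the smallest possible p is 0.00952). No pair of different stages was closer than the pupal or the adult pair, but 12 of the 24 were closer than the egg pair and 19 closer than the larval pair. Leaving out a pupal or an adult sample gave a difference of 1.22 to 1.5 bp with an exact p of 0.229 to 0.276, and leaving out egg replicate 1 gave 2.89 bp with an exact p of 0.105.

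**Figure D2:**
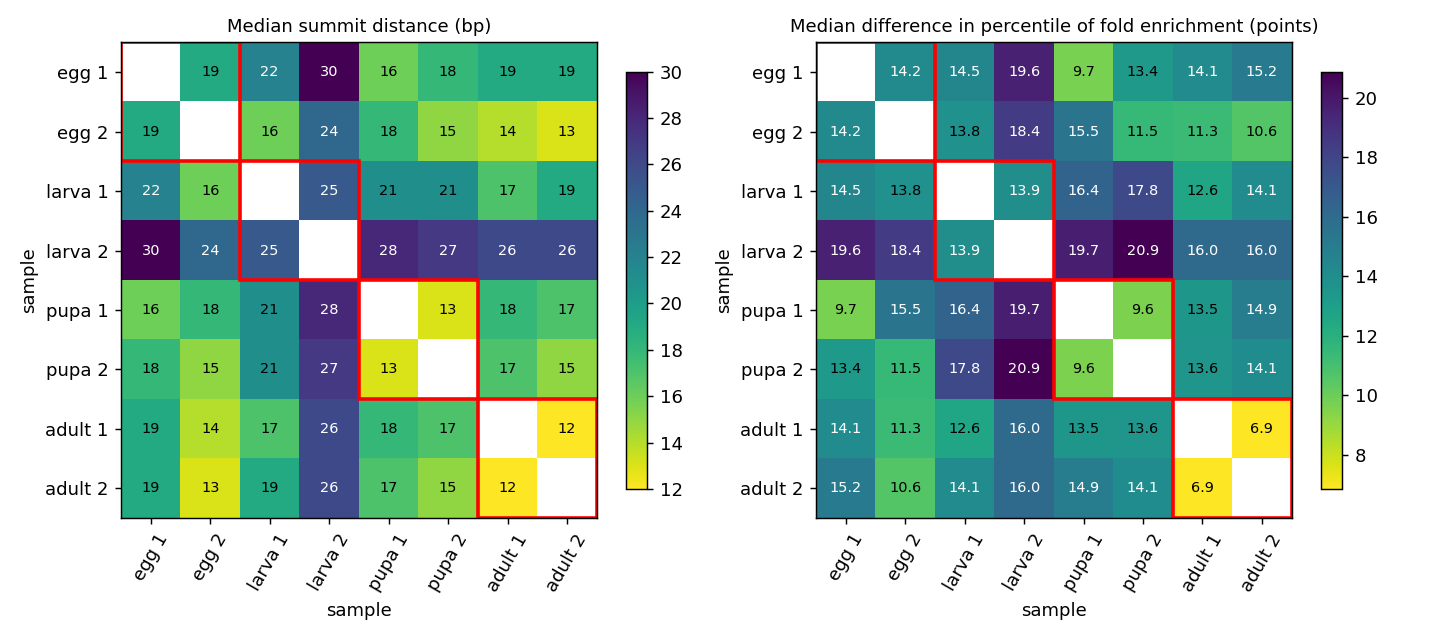
Median distance between the summits of a pair of samples (left, bp) and median difference in percentile of fold enrichment (right, percentage points), over the 3343 members, with red frames around the 2 samples of a stage. The adult pair has the lowest value in both panels (12 bp and 6.86 points), the pupal pair is at 13 bp, as is egg replicate 2 with adult replicate 2, and at 9.61 points, and every pair with larva replicate 2 is at 24 bp or more.

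The members that disagreed most were weak to moderate peaks, each with more than 1 summit in at least 4 samples. In NC_015770.1 from 14610656 to 14611645 the summit range was 684 bp, with larva replicate 2 alone at -668 bp from the median position and the other 7 within 16 bp of it. Up to 3 summits were called there per sample, and the fold enrichment ran from 3.01 in adult replicate 2 to 4.99 in pupa replicate 1. In NC_015764.1 from 11044204 to 11045153 (652 bp), larva replicate 2 and pupa replicate 2 had their main summit at -640 and -639 bp from the median position and the other 6 samples within 16 bp of it, and the fold enrichment ran from 4.11 to 6.91. NC_015765.1 from 7724211 to 7725163 (673 bp) had no base covered in all samples, and 1 replicate each of larva, pupa and adult had the earlier summit, with fold enrichments of 1.99 to 4.14 over the samples. In none of these 3 members did the positions separate the stages.

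A single summit was called in every sample in 1746 members (52.2%), and 1597 (47.8%) had more than 1 summit in at least 1 sample. The median summit range was 59 bp in the former, with an interquartile range of 38 to 93 bp, and 78 bp in the latter, with 40 to 248 bp. Ranges over 100 bp were found for 370 members of the first kind and 714 of the second. Where 2 neighbouring summits were called in 1 sample, their median distance was between 272 bp in larva replicate 2 and 326 bp in egg replicate 1.

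In 196 members (5.86%) the 8 summits fell in 2 tight places, each within 50 bp and separated by a gap of at least 100 bp, with a median distance of 277 bp between the places. This set was defined after the data were seen. In 114 of them a single sample stood alone, which was larva replicate 2 in 57 cases and adult replicate 2 in 2. In the other 82 at least 2 samples lay on either side, and in 11 of these the 2 replicates of every stage were on the same side. Over the 82 members, the 2 egg samples were on the same side in 46.3%, the larval samples in 48.8%, the pupal samples in 65.9% and the adult samples in 67.1%, and pairs of different stages in 32.9% to 67.1%. The 11 members are therefore described as single cases and not as a pattern of the stages. The larva stood alone in 5 of the 11, the egg in 2, and the pupa and the adult in 1 each.

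Some of these 11 members are described here, chosen after their values were seen. NC_015772.1 from 13888106 to 13888717 had 1 summit in every sample, at bases 13888304 and 13888304 in the egg, 13888284 and 13888276 in the larva, 13888531 and 13888533 in the pupa, and 13888495 and 13888486 in the adult. The egg and larval summits were thus about 219 bp before the pupal and adult ones. The peak was weak in the larva, with a −log10 (P value) of 4.37 and 8.09. Its fold enrichment was 8.76 and 8.87 in the egg, 2.56 and 3.92 in the larva, 6.39 and 4.50 in the pupa, and 5.18 and 4.70 in the adult.

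In NC_015765.1 from 9913476 to 9914449 the same split of early and late stages ran the other way along the chromosome. The summits were at bases 9914210 and 9914227 in the egg, 9914234 and 9914218 in the larva, 9913797 and 9913789 in the pupa, and 9913830 and 9913818 in the adult, a distance of 414 bp between the places. Both pupal samples, both adult samples and egg replicate 2 had 2 summits in this member, and the remaining 3 samples had 1.

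The pupa stood alone in NC_015774.1 from 1268279 to 1269255, with summits at bases 1268870 and 1268897 against 1268427 to 1268467 in the other 6 samples. All 8 samples had 2 summits there. The adult stood alone in NC_015778.1 from 475535 to 476168, with summits at 475728 and 475740 against 475962 to 475981. The larva stood alone in NC_015764.1 from 8744108 to 8745028, with summits at 8744831 and 8744829 against 8744337 to 8744377, again with 2 summits in all 8 samples.

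As a group, the members ranked high in 6 of the 8 lists, as the rule favours. A percentile was taken among all distinct intervals of a list, with 100 for the highest. By fold enrichment, the median member stood at percentile 77.6 and 79.6 in the egg, 62.8 and 48.0 in the larva, 78.5 and 82.2 in the pupa, and 77.4 and 81.1 in the adult. The stage means were 78.6 ± 1.43 for egg, 55.4 ± 10.4 for larva, 80.3 ± 2.66 for pupa and 79.2 ± 2.56 for adult (SD, n = 2 each). Both larval samples were below the other 6, and they also had the shortest lists, so that a region of the same order number has a lower percentile there. Among intervals of placed chromosomes alone the medians were 73.4 and 60.03 in the larval samples and 82.7 to 85.7 in the others.

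Ranked by −log10 (P value), the median member stood at percentile 80.2 and 83.7 in the egg, 63.1 and 49.1 in the larva, 81.0 and 86.3 in the pupa, and 79.2 and 83.1 in the adult. Over members, this value had a median of 30.8 and 44.3 in the egg, 16.8 and 9.61 in the larva, 35.9 and 50.03 in the pupa, and 32.6 and 40.5 in the adult. A value above 20 was found for 70.0% to 87.4% of the members in the egg, pupal and adult samples, for 39.7% in larva replicate 1 and for 12% in larva replicate 2. All 8 samples exceeded 20 in 340 members (10.2%). Larva replicate 2 had the lowest −log10 (P value) of the 8 samples in 2492 members (74.5%).

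**Figure D3:**
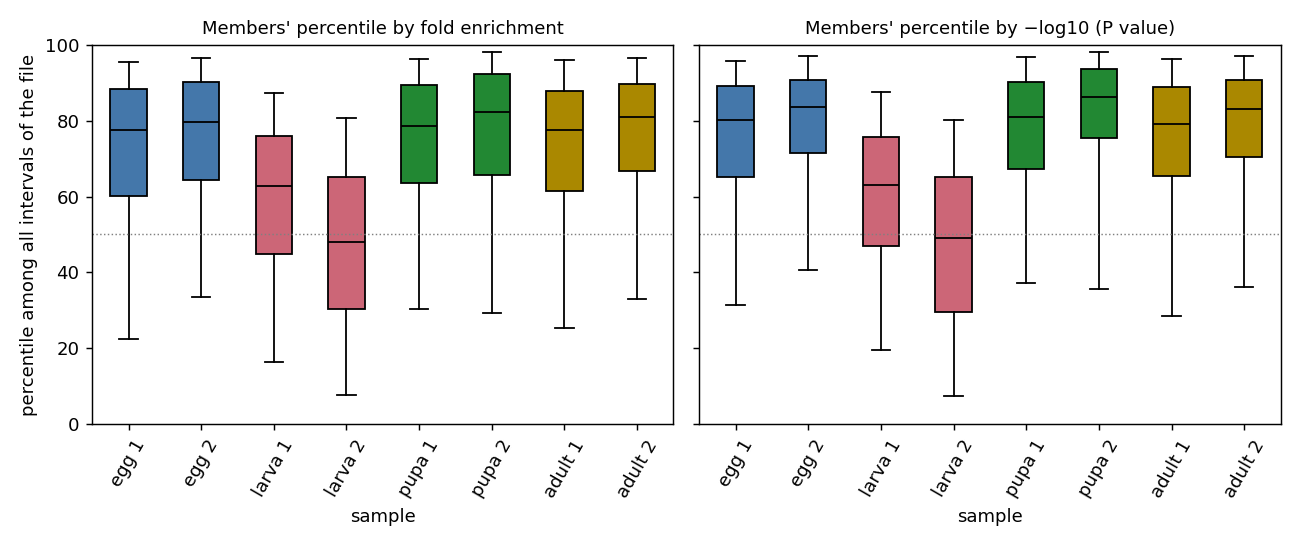
Percentile of the 3343 members among all distinct intervals of each list, by fold enrichment (left) and −log10 (P value) (right), with boxes from the first to the third quartile, a line at the median and whiskers from the 5th to the 95th percentile of the members. The medians of the larval samples are 62.8 and 48.0 by fold enrichment, below the 77.4 to 82.2 of the other samples.

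Members were also ordered by their lowest fold enrichment over the 8 samples, a choice that fixes a high value in every stage. The first was NC_015769.1 from 9732855 to 9733834, with 14.3 and 13.4 in the egg, 14.5 and 14.8 in the larva, 14.3 and 13.5 in the pupa, and 14.8 and 13.8 in the adult. It holds the last base with a peak on its chromosome, one of 3 members that do so. Among the 4880 constant regions, both egg samples were lower there, at percentile 99.1 and 98.7, than the other 6, at 99.7 or above.

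The second was NC_015762.1 from 14534899 to 14535696, with 14.5 and 13.1 in the egg, 14.5 and 15.4 in the larva, 13.6 and 13.3 in the pupa, and 13.9 and 12 in the adult. The third was NC_015767.1 from 1 to 753, with 15.0 and 17.2 in the egg, 13.1 and 14.3 in the larva, 16.3 and 11.8 in the pupa, and 14.7 and 11.6 in the adult. It was the single member that began at the first base of a chromosome sequence.

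To compare strength between stages without the effect of list length, fold enrichment was ranked in each sample among the 4880 constant regions, narrow and broad. On this scale the median member stood between percentile 42.4 and 46.7 in all 8 samples. Members make up 68.5% of the ranked regions, so this median cannot move far and is no measure of strength by stage. The range of a member's percentile over the 8 samples had a median of 44.1 percentage points, and it was at most 10 points in 79 members (2.36%). The smallest range belonged to NC_015767.1 from 1 to 753, at 0.430 points. It was followed by NC_015762.1 from 10962350 to 10962759, where the fold enrichment was 24.9 and 22.2 in the egg, 19.9 and 19.4 in the larva, 15.8 and 11.2 in the pupa, and 19.8 and 10.8 in the adult, and the summits lay within 11 bp. The next was NC_015762.1 from 9906264 to 9907103, with fold enrichments of 10.7 to 15.1, a range of 57 bp in the summits and 2 summits in every sample.

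All 3 were at the upper end of the scale, above percentile 98 in every sample, where little room is left to move. The members in the highest 25% of the constant regions in all 8 samples numbered 154, and those in the lowest 25% in all 8 numbered 155.

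Between pairs of samples, the median difference in this percentile was 6.86 points for the adult pair, 9.61 for the pupal pair, 13.9 for the larval pair and 14.2 for the egg pair. The mean was 11.1 ± 3.54 points (SD, n = 4 pairs) within stages and 14.9 ± 2.88 points (SD, n = 24 pairs) between stages. The difference of 3.73 points had an exact one-sided permutation p of 0.019 over all pairings, and 0.019 after adjustment over 2 tests. The closest pair of different stages was egg replicate 1 with pupa replicate 1, at 9.67 points, which was closer than the egg pair itself. Egg replicate 2 was closest to adult replicate 2, at 10.6 points. Without pupa replicate 2, adult replicate 1 or adult replicate 2 the difference was 2.54 to 3.12 points with an exact p of 0.0667 to 0.114.

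Stage differences of single regions were tested with limma on rank-based normal scores, in which the rank in a sample is turned into the matching value of a standard normal distribution, with Benjamini-Hochberg adjustment over all 4880 constant regions. The F test over the 4 stages called 244 members (7.30%) at an adjusted p below 0.05, against a background of 6.7% of the 4880. The members' share is thus close to that of all constant regions, of which they make up 68.5%. Among the broad regions alone 5.40% were called. The count rested on single libraries: it was 0 without pupa replicate 2, adult replicate 1 or adult replicate 2, 57 without pupa replicate 1, 120 without larva replicate 2, 370 without egg replicate 1 and 492 without egg replicate 2. The p-values measure the spread between these samples only.

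Each stage was then set against the mean of the other 3 stages, in contrasts that share samples. In the larva 73 members were higher, 2.18% against a background of 2.42%, and 134 lower, 4.01% against 3.73%. In the pupa 106 were higher, 3.17% against 2.83%, and 34 lower, 1.02% against 0.963%. In the adult 4 were higher, 0.120% against 0.102%, and 72 lower, 2.15% against 1.72%. Members make up 68.5% of this background. Among the broad regions alone, 2.93% were higher and 3.12% lower in the larva. The broad shares were 2.08% and 0.846% in the pupa, and 0.0651% and 0.781% in the adult. No member passed the limma test in either direction in the egg (background 0%), where 219 members were higher (6.55%, background 5.37%) and 158 lower (4.73%, background 4.18%) at an unadjusted p below 0.05. At the same unadjusted threshold, 392 members were higher (11.7%, background 13.1%) and 438 lower (13.1%, background 12.7%) in the larva. The pupa had 429 higher (background 11.9%) and 369 lower (background 10.3%), and the adult 219 higher (background 5.78%) and 312 lower (background 8.11%). The median absolute difference in normal score between replicates was 0.532 for egg, 0.506 for larva, 0.375 for pupa and 0.278 for adult. 

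These counts moved with single libraries. The share of all constant regions called in the same settings is not given. Whether the shifts are particular to the members can therefore not be told, here or for the F test. In the larva, the calls in both directions were lost without larva replicate 2 but not without larva replicate 1. The members higher in the larva numbered 114 and 119 without egg replicate 1 and 2, 15 without pupa replicate 2, and 7 without either adult sample. Those lower in the larva numbered 36 without pupa replicate 2, and 27 and 18 without adult replicate 1 and 2.

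In the pupa, no member was called without either pupal sample. The members higher in the pupa numbered 201 without egg replicate 1, and 42 and 25 without adult replicate 1 and 2. Those lower in the pupa numbered 112 without egg replicate 1, and 6 and 4 without adult replicate 1 and 2. In the adult, none was higher without either adult sample, and 0 and 1 were lower without adult replicate 1 and 2. Without egg replicate 2, 37 were higher and 141 lower in the adult, and 8 were higher and 6 lower in the egg. Without larva replicate 1, 7 were higher in the adult, and 1 was higher and 1 lower in the egg. Without pupa replicate 1 and 2, 2 and 1 were higher in the adult.

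Separation of the samples was counted as well. Both larval samples were above the other 6 in 369 members (11.04%, background 13.4%) and below them in 304 (9.09%, background 9.08%). Both pupal samples were above in 296 (8.85%, background 8.89%) and below in 287 (8.59%, background 8.73%). Both adult samples were above in 190 (5.68%, background 5.35%) and below in 225 (6.73%, background 6.02%). Both egg samples were above in 123 (3.68%, background 3.14%) and below in 119 (3.56%, background 3.79%). The members' shares were near those of all constant regions, apart from the first, but members make up 68.5% of that background. Among the broad regions alone, both larval samples were above in 286 (18.6%) and both egg samples in 30 (1.95%). Both adult samples were below in 69 of them (4.49%). For the remaining counts the shares of narrow and broad regions were closer. These differences between narrow and broad regions were not tested.

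The following members had the largest differences among those called and not overlapping in percentile between the stage and the rest. The member highest in the larva relative to the other stages was NC_015779.1 from 3238955 to 3239644, with percentiles of 64.4 and 93.8 in the larva, 7.48 and 6.37 in the egg, 1.31 and 0.266 in the pupa, and 3.30 and 2.68 in the adult. Its fold enrichment was 5.72 and 7.47 in the larva and 1.81 to 3.56 elsewhere, and its difference was 2.91 ± 0.367 (SE) in normal score, with an adjusted p of 0.00967 by limma. The second was NC_015764.1 from 6961804 to 6962415, with percentiles of 31.7 and 81.6 in the larva and at most 16.9 elsewhere. Its difference was 2.22 ± 0.524, with an adjusted p of 0.0350 by limma. It did not pass the F test over the stages (adjusted p = 0.0632 by limma). Its fold enrichment was 4.18 in larva replicate 1, close to the 4.13 of egg replicate 1, and 5.98 in larva replicate 2. In both, the larval replicates were far apart from each other although above the rest.

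The strongest decrease in the larva was in NC_015772.1 from 6476099 to 6476727. Its fold enrichment was 3.05 and 2.49 in the larva against 8.27 and 8.44 in the egg, 7.70 and 8.18 in the pupa, and 7.66 and 6.13 in the adult, and its normal score fell by 2.63 ± 0.311 (SE, adjusted p = 0.00967 by limma). NC_015766.1 from 11145522 to 11146124 had 2.70 and 2.62 in the larva, 8.77 and 7.93 in the egg, 6.71 and 7.73 in the pupa, and 5.48 and 3.96 in the adult, and its normal score fell by 2.24 ± 0.314, with the same adjusted p by limma. Its common stretch was 29 bp long. Without larva replicate 2 the adjusted p of these 4 larval members was between 0.0586 and 0.289 by limma, and that of the second member higher in the larva was also above 0.05 without pupa replicate 2 (0.0597), adult replicate 1 (0.0902) or adult replicate 2 (0.0619).

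In the pupa, NC_015771.1 from 12821967 to 12822753 reached a fold enrichment of 13.4 and 11.6, against 4.90 and 3.10 in the egg, 4.05 and 5.04 in the larva, and 8.58 and 4.11 in the adult. It was at percentile 99.5 and 99.7 in the pupa and at 2.98 in egg replicate 2, and its difference was 2.96 ± 0.444 in normal score (SE, adjusted p = 0.0109 by limma). NC_015765.1 from 10211044 to 10211743 had 9.88 and 8.79 in the pupa and 2.19 to 4.38 elsewhere, with a difference of 2.93 ± 0.407 and the same adjusted p by limma. Its summits lay within 44 bp in all 8 samples, so the place was shared while the strength was not.

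Lower in the pupa was NC_015764.1 from 173985 to 174472, with 2.89 and 2.31 in the pupa, 5.87 and 10.4 in the egg, 3.64 and 3.92 in the larva, and 7.47 and 6.51 in the adult (its normal score fell by 2.13 ± 0.380, adjusted p = 0.0146 by limma). NC_015771.1 from 1743812 to 1744258 had 2.17 and 1.80 in the pupa, 4.28 and 4.90 in the egg, 4.64 and 3.49 in the larva, and 3.85 and 3.27 in the adult (its normal score fell by 2.06 ± 0.317, adjusted p = 0.0125 by limma). Without either pupal sample the adjusted p of the 4 pupal members was between 0.0606 and 0.167 by limma, and that of the member at 173985 was 0.0537 without adult replicate 2.

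In the adult, NC_015772.1 from 3422903 to 3423620 had 8.68 and 6.46, against 2.45 and 3.22 in the egg, 3.37 and 2.36 in the larva, and 6.06 and 6.17 in the pupa, and its difference was 2.25 ± 0.406 in normal score (SE, adjusted p = 0.0162 by limma). NC_015762.1 from 12591032 to 12591606 had 7.01 and 6.46, against 4.94 and 3.92 in the egg, 3.23 and 2.62 in the larva, and 6.75 and 5.35 in the pupa (1.46 ± 0.333, adjusted p = 0.04997 by limma). This second member was separate only in percentile, at 67.3 and 82.8 in the adult and at most 64.0 elsewhere. By fold enrichment, adult replicate 2 was below pupa replicate 1. In both members the pupal samples also lay above the egg and larval ones, so that early and late stages were apart. The pupal percentiles were in the middle of the scale, at 52.6 and 67.7 in the first member and 64.0 and 52.5 in the second. Neither was called in the pupal contrast (adjusted p = 0.106 and 0.180 by limma).

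Lower in the adult was NC_015772.1 from 9291846 to 9292305, with 2.09 and 2.86 in the adult, 10.3 and 10.1 in the egg, 6.20 and 5.98 in the larva, and 4.38 and 6.99 in the pupa (its normal score fell by 2.61 ± 0.445, adjusted p = 0.0137 by limma). NC_015764.1 from 13614748 to 13615624 had 3.79 and 2.13 in the adult, 12.1 and 8.50 in the egg, 5.13 and 4.67 in the larva, and 9.81 and 7.97 in the pupa (its normal score fell by 2.47 ± 0.380, with the same adjusted p by limma). Without either adult sample the adjusted p of the 4 adult members was between 0.0515 and 0.808 by limma, and the member at 12591032 was also above 0.05 without larva replicate 2 (0.0613), pupa replicate 1 (0.0874) or pupa replicate 2 (0.116). All 12 members kept the sign of their difference in all 11 alternatives. Their choice largely fixed this, since both samples of the stage had to lie outside the range of the other 6. The kept sign is therefore no evidence that the differences are stable.

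**Figure D4:**
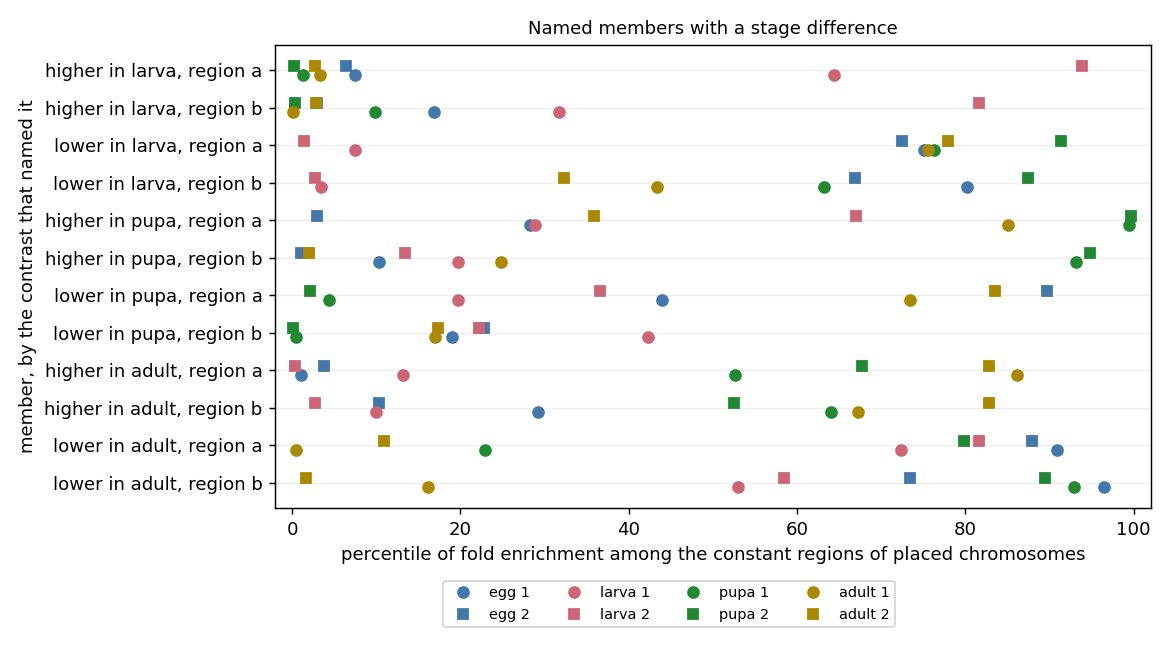
Percentile of fold enrichment among the 4880 constant regions (x axis) in each of the 8 samples. The rows are the 12 named members called in the contrast of a stage with the others (y axis, a and b in the order of the text). Circles mark replicate 1 and squares replicate 2. The 2 symbols of the named stage lie outside the range of the other 6 in every row, for example at 99.5 and 99.7 in the pupa for the first member higher in that stage.

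Members were spread over all 18 chromosomes. Between 67 on NC_015779.1 and 308 each on NC_015768.1 and NC_015772.1 were found. As a share of all merged regions of a chromosome, members ran from 4.95% on NC_015773.1 (95% Clopper-Pearson interval 4.25% to 5.73%) to 9.29% on NC_015777.1 (7.79% to 10.96%), followed by 7.66% on NC_015772.1 (6.85% to 8.52%). These intervals reflect only the counting of regions, which are not independent of their neighbours. Per Mb between the first base and the last base with a peak, NC_015777.1 had 23.7 members and NC_015770.1 had 11.9, the fewest. The median summit range was between 58.5 and 72 bp on 17 chromosomes and 86.5 bp on NC_015767.1.

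The gap from a member to the next had a median of 27314 bp, with an interquartile range of 8372 to 73770 bp. It was 69709 bp between neighbouring broad constant regions, which are fewer. A second member lay within 1000 bp of 446 members (13.3%) and within 5000 bp of 1064 (31.8%). The nearest merged region of any kind was at a median of 641 bp, and the nearest constant one at a median of 7426 bp. No member lay in 35.7% of the 2177 windows of 100 kb.

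The smallest gap, 12 bp, separated NC_015765.1 from 10548638 to 10549364 and from 10549377 to 10550161. The former was enriched 5.62-fold and 4.41-fold in the egg, 4.30 and 2.59 in the larva, 2.70 and 2.74 in the pupa, and 3.05 and 2.71 in the adult. The second was stronger in every sample, with 8.59 and 10.9, 7.23 and 4.97, 6.52 and 9.41, and 6.04 and 4.74 in the same order. Their summit ranges were 199 and 28 bp, so the stronger neighbour was also the more exactly placed.

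The longest gap, 1209611 bp, lay on NC_015764.1 between the member from 7207442 to 7208167 and that from 8417779 to 8418399. The fold enrichment of the former was 12.4 and 15.2 in the egg, 7.55 and 4.11 in the larva, 10.7 and 9.66 in the pupa, and 8.87 and 6.77 in the adult. The latter had 6.58 and 9.65, 6.47 and 4.48, 6.80 and 7.91, and 8.47 and 6.20 in the same order. In both, larva replicate 2 had the lowest value.

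Only 4 windows of 100 kb held 10 or more members, 46 in all. The fullest, on NC_015771.1 from 2600001 to 2700000, held 14 members among 38 merged regions, with a median gap of 2582 bp, and the mean percentile of these members over the samples ran from 1.09 to 56.4. The next, on NC_015765.1 from 2000001 to 2100000 and on NC_015772.1 from 7800001 to 7900000, held 11 each, with median summit ranges of 32 and 74 bp. Of the 46 members, 1 passed the F test by limma, where the background is 6.7% of all constant regions.

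**Figure D5:**
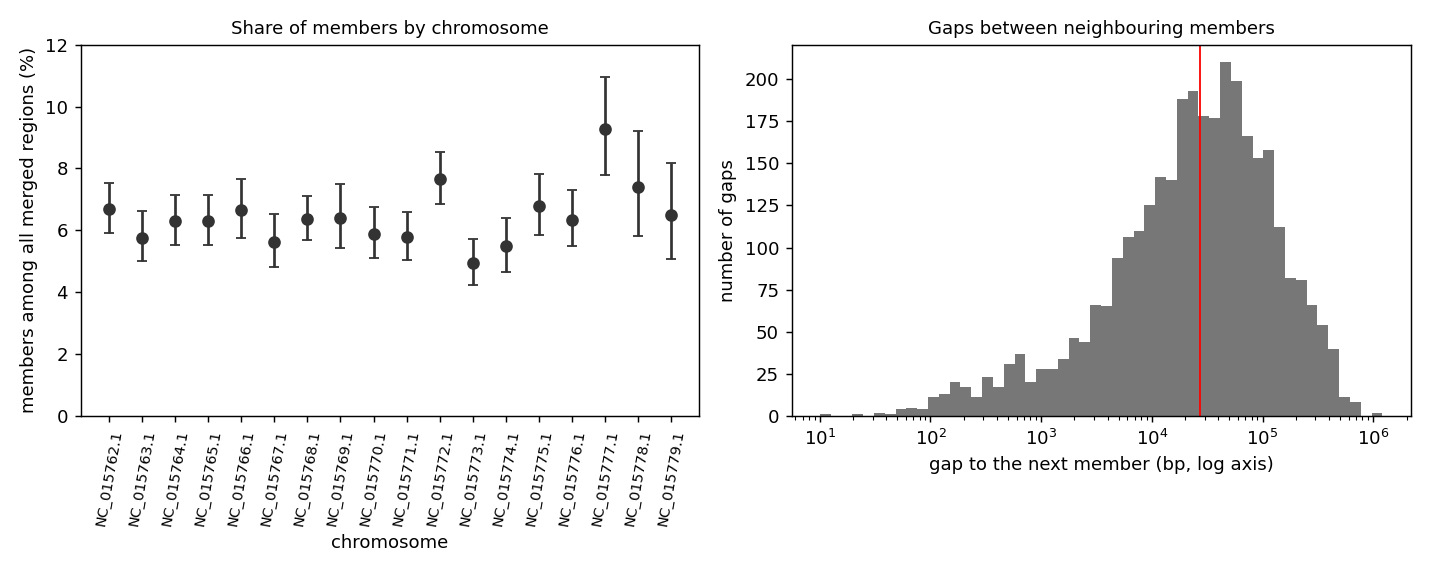
Left, members as a share of all merged regions of each chromosome (%), with 95% Clopper-Pearson intervals as bars; right, number of gaps between neighbouring members by length (bp, log axis), with a red line at the median of 27314 bp. The share is highest on NC_015777.1 (9.29%) and lowest on NC_015773.1 (4.95%).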

How the data were processed

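The authors filtered reads with SOAPnuke, aligned them to Bter_1.0 with Bowtie2, keeping several alignments per read, and called peaks in each sample with MACS2, with windows centred on the cut sites. The paper then kept only peaks that were reproducible between the replicates of a stage. The lists used here hold the peaks of each sample before that step. The submitters' processing notes give Bowtie2 2.2.5 and MACS2 2.2.5. Reads from repeated sequence can thus enter several peaks. The deposited lists give, per summit, its offset in the interval, the fold enrichment over the local background (a ratio) and −log10 of the p-value. The authors did not normalize these values between samples. Their score and q-value columns were not used.

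A region took the best fold enrichment and −log10 p-value of its intervals in a sample, and the summit with the highest −log10 p-value. The 8 samples were grouped by the stage in their labels. Stage differences were fitted with limma 3.58.1 in R 4.3.3, with a trend, on normal scores of ranks among the 4880 constant regions, since peak values are not counts. Pairs of samples were compared with exact permutation tests over all pairings of the 8 samples. The limma fit was checked on simulated data with an equal spread in all samples, and the permutation test on constructed distances. These checks do not cover a spread that differs between stages. Python 3.11.15, numpy 2.4.6, scipy 1.17.1, pandas 2.3.3 and matplotlib 3.10.9 were used.

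The regions named follow a rule: 3 members each by the highest lowest fold enrichment, the smallest and largest summit range and the smallest percentile range; up to 2 per stage and direction, called and not overlapping the other 6 samples; the members at the edge of the width limit; and those at the smallest and longest gap. Ties in summit range went to the member with the higher lowest fold enrichment, and overlap with the other samples was judged by percentile. Members, lists and tests were chosen with earlier results of these data known. Alternatives covered the overlap, thresholds, the span limit, the choice of summit, the ranked value, its scale, a replicate term and leaving out each sample. No depth per sample was available from the lists. The paper gives mapped reads per sample, with the highest number for larva replicate 2, and these were not used here. A genome, genes and sequences of Bter_1.0 were not used here, so the neighbouring genes and motifs that were planned for some of the named regions were not analysed.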

Additional observations from a re-analysis of the deposited data

How the results depend on the processing

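The number of members was 3365 with an overlap of at least 100 bp, but 1423 with intervals at −log10 (P value) of at least 10 and 523 with a span below 500 bp. Leaving out 1 sample gave 3423 to 5258. The median summit range was 59 bp in members with 1 summit in every sample, 49 bp with the stricter intervals, and 51 to 62 bp with 1 sample left out. The share within 50 bp was 40.5% in members with 1 summit, and 39.2% to 49.4% with 1 sample left out.

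The difference in summit distance between and within stages, by medians over members, was 2.42 to 2.625 bp in the settings that kept all samples. By the mean over members it was 5.59 bp, on a larger scale, with 36.6 bp within and 42.2 bp between stages. The exact p was at most 0.019 in all of these settings. With 1 sample left out, the difference by medians was 1.22 to 5.33 bp. The difference in percentile was 2.93 points by −log10 (P value) (exact p = 0.0286) and 6.28 points when ranked among all intervals of a list (exact p = 0.019), and 2.54 to 5.19 points with 1 sample left out.

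With −log10 (P value) in place of fold enrichment, the F test by limma called 136 members and the larva had 70 lower ones. Leaving out 1 sample gave 0 to 492 members for the F test, 0 to 8 higher and 0 to 6 lower for egg, 0 to 119 and 0 to 198 for larva, 0 to 201 and 0 to 112 for pupa, and 0 to 37 and 0 to 141 for adult. Where this left a stage with 1 sample, that sample was assumed to vary like the others. All counts in these alternatives are of members, without the share of all constant regions in the same setting. The replicate block, which adds the replicate number to the model, gave 370 members for the F test, 124 higher in the larva, 70 lower in the pupa and 8 higher in the adult. Nothing in the labels says that a number is shared between stages, so the numbers were not taken as pairs. The deviations of same-numbered samples correlated positively in all stage pairs, from 0.0243 for larva and pupa to 0.470 for egg and pupa. Whether samples of the same number share something was not tested.

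The median percentile was 83.7 for egg, 66.7 for larva, 83.7 for pupa and 84.2 for adult among intervals of placed chromosomes, and 81.9 for egg and 83.7 for pupa by −log10 (P value). Leaving out 1 of the 2 samples gave 77.6 to 79.6, 48.0 to 62.8, 78.5 to 82.2 and 77.4 to 81.1. The median gap was 238838 bp with a span below 500 bp and 19278 bp with a span below 1500 bp, by construction, since fewer or more regions are kept. The cause of the other changes was not tested.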
